A study of Mus musculus with 12 samples.

Results

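The genes of the proteasome were followed by RNA sequencing in naive CD4 T cells sorted from mice, across 12 libraries. The genes taken were the rows of the deposited FPKM table (fragments normalized to transcript length and to the size of the library) whose symbols carry the series letters a to g after the stem Psm and end in a number. The table held 48 such rows, and 46 of them reached 1 FPKM in at least 2 libraries, out of 12511 genes that did so among the 32285 in the table. Psma8, the alpha subunit of testis proteasomes, reached at most 0.255 FPKM in any library, and Psmb11, the beta subunit of thymic cortical epithelium, at most 0.0351 FPKM. No gene inside the threshold lay close to it: the lowest library values among the 46 were 7.13 FPKM for Psmg3 and 7.22 FPKM for Psmd9.

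All libraries came from C57BL/6 mice. One set, named after Mettl3, held resting wild type cells (0 h, 3 libraries), wild type cells after 48 h of culture with anti-CD3/CD28 antibodies (3) and resting Mettl3-/- cells (2, numbered 1 and 3). The other set, named after Nudt21, held 2 wild type and 2 Nudt21-/- libraries, all at 0 h. Mettl3 encodes the catalytic subunit of the enzyme that methylates adenosines in mRNA, and Nudt21 a component of the machinery that picks where transcripts are cleaved and polyadenylated. The labels gave neither age nor the driver of the deletions, and did not tie libraries to animals. The p-values therefore rest on the spread among these libraries, which may be technical. No knockout library at 48 h was analysed here, so activation was measured in wild type cells alone. In these bulk samples fewer cells of a type and less RNA per cell cannot be told apart.

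The proteasome is the protease that degrades proteins tagged with ubiquitin. Its 20S core is a stack of rings of alpha subunits (Psma genes) and beta subunits (Psmb genes). Proteolysis is carried out by the beta subunits Psmb5, Psmb6 and Psmb7. In the immunoproteasome, which is abundant in lymphocytes and inducible by interferon gamma, they are replaced during assembly by Psmb8, Psmb9 and Psmb10, which shifts cleavage towards peptides suited to MHC class I. Substrates enter through the 19S particle of ATPases (Psmc genes) and non-ATPase subunits (Psmd genes), or through the PA28 activator built from Psme1 and Psme2. Psmg1 to Psmg4 encode chaperones that assemble the 20S core and leave it.

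Promoters of exchanged subunits and of the PA28 gene Psme1 are shown first, as description. Whether the motifs bear on any change was not tested. RefSeq windows on GRCm38.p6, from 250 bases before to 50 bases after a RefSeq start, were found for 39 of the 46 genes, and Psmb7 was not among them. Each was searched on both strands for the interferon-stimulated response element core (GAAA, any 2 bases, GAAA), the gamma-activated site TTCNNNGAA and the antioxidant response element core TGACNNNGC, where N is any base. In the 1 window with a pair of motifs, that of Psmd9, they did not overlap. The stretches shown are those of Psmb8 and Psme1, which hold a motif of the interferon response, of Psmb10, an exchanged subunit whose window holds none of the motifs, and of the constitutive Psmb5 and Psmb6, which hold the antioxidant core. The windows of Psmb9 and Psme2 hold none of them either. Those of Psmb8, Psmb9 and Psme1 lie inside the genes as annotated by GENCODE M21, so sequence before those annotated starts was not searched. Capitals mark the match, and sequences run 5′ to 3′ on the strand of the gene. Bases that GENCODE M21 annotates as exon were trimmed away, except around the matches of Psmb8 and Psme1, which lie in annotated first exons and are shown with 30 bases.
Psmb8 (chr17:34198088-34198117, plus strand): tcctccgctgTTCCCAGAAgatgccccccc
Psme1 (chr14:55578493-55578522, plus strand): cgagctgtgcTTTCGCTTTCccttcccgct
Psmb10 (chr8:105938445-105938642, minus strand): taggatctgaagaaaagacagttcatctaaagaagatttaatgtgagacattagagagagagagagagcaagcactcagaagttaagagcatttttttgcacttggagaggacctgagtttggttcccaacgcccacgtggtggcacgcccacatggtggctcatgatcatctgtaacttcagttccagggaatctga
Psmb5 (chr14:54618023-54618245, minus strand): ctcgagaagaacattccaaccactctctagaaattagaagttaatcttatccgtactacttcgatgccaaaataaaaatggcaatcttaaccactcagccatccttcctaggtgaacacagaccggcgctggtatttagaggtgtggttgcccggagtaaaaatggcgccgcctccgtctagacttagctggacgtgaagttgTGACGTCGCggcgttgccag
Psmb6 (chr11:70525107-70525356, plus strand): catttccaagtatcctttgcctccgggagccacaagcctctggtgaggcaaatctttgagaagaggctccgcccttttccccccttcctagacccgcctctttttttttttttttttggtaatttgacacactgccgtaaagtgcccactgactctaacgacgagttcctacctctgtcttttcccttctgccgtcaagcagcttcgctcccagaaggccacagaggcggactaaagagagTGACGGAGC
The antioxidant core began 47 bases before the RefSeq start of Psmb5 and 9 bases before that of Psmb6. The gamma-activated site began 97 bases before the RefSeq start of Psmb8, within the annotated gene. The interferon-stimulated core was present in 5 of the 39 genes (Psmb3, Psmd4, Psmd9, Psme1 and Psmg4), or 12.8%, against 3.99% of 27025 genes. TTCNNNGAA was present in 3 (Psmb8, Psmd2 and Psmg1), or 7.69%, against 9.55% of genes. TGACNNNGC was present in 6 (Psmb5, Psmb6, Psmc6, Psmd12, Psmd9 and Psme4), or 15.4%, against 13.99% of genes. It was present in 0 of the 5 genes Psmb8, Psmb9, Psmb10, Psme1 and Psme2, which are too few to set against that share. These matches describe letters in a window and show no binding.

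The targeted genes followed the labels. Mettl3 stood at 26.7, 28.7 and 25.3 FPKM in its resting wild type and 5.35 and 6.45 FPKM in its knockout, and Nudt21 at 18.2 and 16.9 FPKM and 7.57 and 6.69 FPKM. Replicates correlated at 0.991 to 0.997 over log2 values of genes, except the Mettl3 knockout libraries at 0.925; over the 46 proteasome genes that pair correlated at 0.99. Summed over 9 markers, naive CD4 T cell genes held 2734 to 3234 FPKM in the resting wild type of the Mettl3 set, 1501 to 1592 at 48 h, 2449.6 to 2672 in the Mettl3 knockout, 2845 to 2939 in the Nudt21 wild type and 3214 to 3596 in the Nudt21 knockout. In the same order, 11 myeloid and dendritic cell markers held 4.65 to 7.55, 0.741 to 1.01, 2.43 to 339, 35.4 to 84.1 and 193 to 291 FPKM, and 6 erythroid and platelet markers 11.04 to 19.7, 0.319 to 0.758, 2.51 to 179.8, 191 to 243 and 334 to 369 FPKM. B cell markers (6 genes) held 2.81 to 5.61, 2.92 to 4.17, 2.37 to 22.4, 23.02 to 36.03 and 69.7 to 118 FPKM, and 7 markers of NK, CD8 T or gamma-delta T cells 27.4 to 33.4, 8.42 to 11.4, 33.3 to 95.7, 28.1 to 33.98 and 83.1 to 93.5 FPKM. In the Mettl3 knockout the higher of the 2 sums was that of library 3 in each of these 4 lists. Cd8b1 was high in both knockout libraries, at 19.02 and 21.5 FPKM against 7.32, 8.16 and 8.52 FPKM in wild type. The other genes of its list did not rise in this way in library 1. There Klrd1 stood at 4.697 FPKM against 15.2, 16.7 and 11.6 FPKM in wild type. Cd8a was also below every wild type library. Ncr1 and Trdc lay within the wild type values, and Klrb1c and Tcrg-C1 slightly above them.

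In the resting wild type of the Mettl3 set the immunoproteasome gene had the higher mean level in each exchanged pair. FPKM is a level per length, so levels of different genes can be set side by side on it. Psmb8 (ENSMUSG00000024338; mm10 chromosome 17, 34197721 to 34201454), the chymotrypsin-like immunosubunit, stood at 139, 150.4 and 155 FPKM at 0 h in the Mettl3 set's wild type (3 libraries), where its constitutive counterpart Psmb5 (chromosome 14, 54614119 to 54618022) stood at 54.3, 47.1 and 52.4 FPKM. Psmb10 (chromosome 8, 105935735 to 105938444), the trypsin-like immunosubunit, stood at 84.7, 78.1 and 85.7 FPKM against 40.4, 43.2 and 41.3 FPKM of Psmb7 (chromosome 2, 38588036 to 38644087). Psmb9 (chromosome 17, 34181987 to 34187764) was closest to its counterpart, at 68.5, 84.6 and 81.5 FPKM against 67.2, 64.9 and 63.5 FPKM of Psmb6 (chromosome 11, 70525367 to 70527858). The PA28 genes Psme1 (chromosome 14, 55578123 to 55581529) and Psme2 (chromosome 14, 55587441 to 55591113) stood at 173, 200.3 and 193 FPKM and 104, 121 and 115 FPKM. All positions cover protein-coding genes on mm10. Annotated exons of Psmb9 overlap those of Tap1, those of Psmb8 overlap Gm20496 and those of Psmb7 overlap Nek6, and whether the counting used strand is not given in the sources used here, so reads in the overlaps cannot be told apart. Psme2 shares 59.3% of its 50-base words with Psme2b and is uncertain to that extent, as are Psma5 and Psmb5 with 55.4% and 57.1% shared with other annotated genes.

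Transcripts of nearly the whole complex rose with activation. No library from culture without the antibodies was analysed here, so stimulation and time in culture cannot be told apart. After 48 h with anti-CD3/CD28 antibodies, 44 of the 46 genes rose and 1 fell, and the test left 1 without a call, by limma on log2(FPKM + 1) with adjustment over all 12511 genes and a threshold of 0.05. Among all genes 43.6% were called higher and 34.9% lower in this comparison. The median log2 change was 0.80 over the 46 genes and 0.069 over all genes, and 16 of the 46 were at least 2-fold higher on this scale, as were 18% of all genes. In 45 of the 46 genes the 3 libraries of each time did not overlap, which held for 82.9% of all genes. The 46 genes together made up 0.649 to 0.683% of summed FPKM at 0 h and 1.06 to 1.11% at 48 h. A quantile normalization moved the median of all genes to -0.11, and 42 of the 46 genes were then still called higher and 1 lower.

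**Figure D1:**
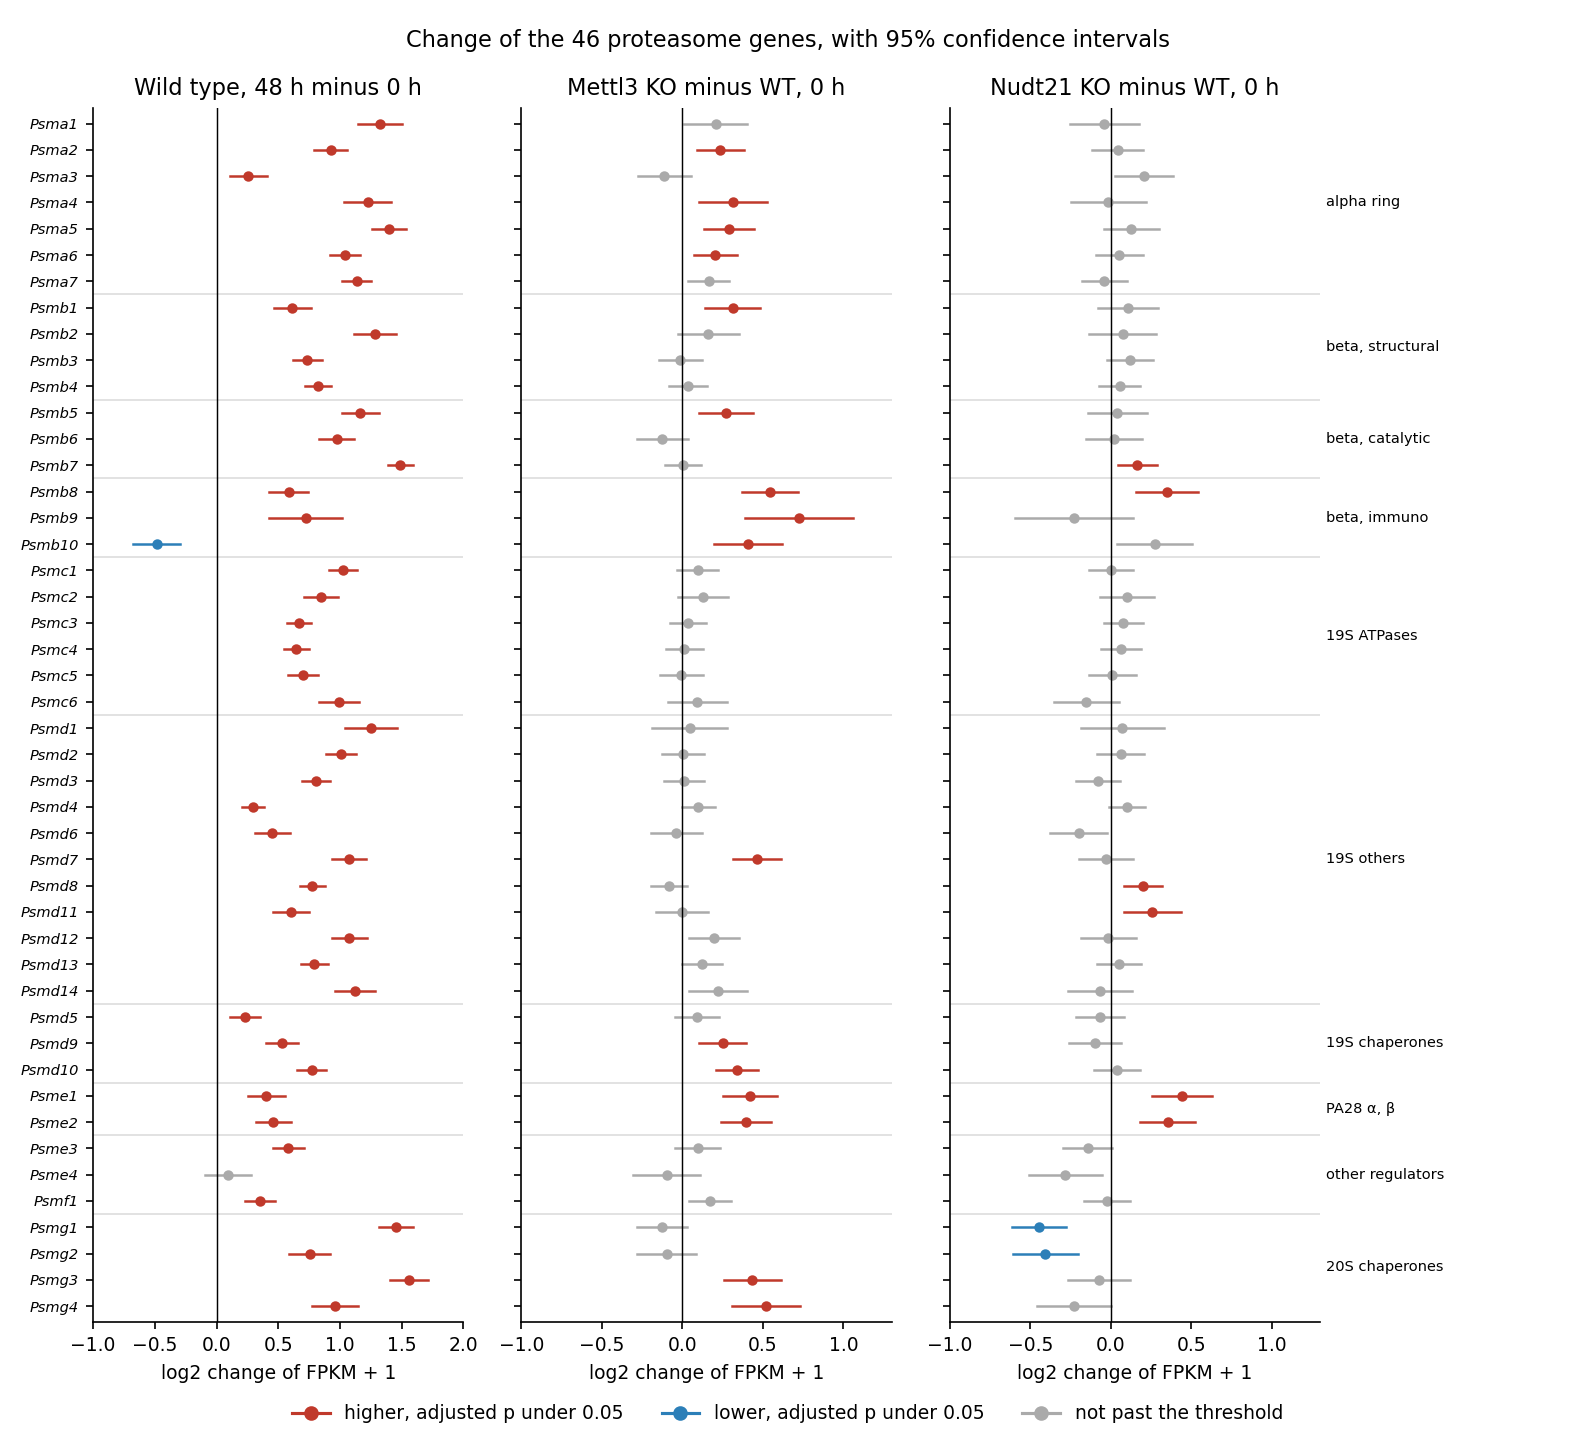
Log2 change of each of the 46 genes on the log2(FPKM + 1) scale, in rows by role, for activation, the Mettl3 knockout and the Nudt21 knockout; points are fitted changes, lines their 95% confidence intervals, red and blue mark genes called higher and lower. With activation 44 genes are red and Psmb10 is blue at -0.49; in the Mettl3 knockout the 5 immunoproteasome and PA28 genes are all red.

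Within the 20S core all 7 alpha ring genes rose, at a median log2 change of 1.14. Psma5 moved most, from 26.1, 28.96 and 29.99 FPKM to 74.4, 78.7 and 76.04 FPKM (log2 change 1.4, SE 0.062, limma adjusted p = 2.44e-08). Every 48 h library of Psma5 was above every 0 h library. Psma3 moved least among them (0.26) and lost its call under the quantile normalization (adjusted p = 0.189). The 4 structural beta genes Psmb1 to Psmb4 rose at a median of 0.78. Psmb2, which forms part of the beta ring without a proteolytic site, went from 43.96, 51.4 and 48.98 FPKM to 114, 128 and 114 FPKM (log2 change 1.29, SE 0.076, limma adjusted p = 1.39e-07).

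The 3 catalytic genes of the constitutive core rose, as did Psmb8 and Psmb9, while Psmb10 fell. Psmb7, the trypsin-like subunit, went from 40.4, 43.2 and 41.3 FPKM to 116, 121 and 119 FPKM, a 2.81-fold rise (log2 change 1.49, SE 0.044, limma adjusted p = 3.39e-09). Psmb5, the chymotrypsin-like subunit, went from 54.3, 47.1 and 52.4 FPKM to 109, 121 and 118 FPKM (log2 change 1.17, SE 0.067, limma adjusted p = 1.16e-07). Psmb6, the caspase-like subunit, went from 67.2, 64.9 and 63.5 FPKM to 121, 131 and 135 FPKM (log2 change 0.97, SE 0.063, limma adjusted p = 2.7e-07). In all 3 genes the libraries of the 2 times were well apart. Psmb8 rose from 139, 150.4 and 155 FPKM to 212, 219 and 237 FPKM (log2 change 0.59, SE 0.07, limma adjusted p = 2.56e-05). Psmb9 rose from 68.5, 84.6 and 81.5 FPKM to 114, 121 and 156 FPKM (log2 change 0.72, SE 0.13, limma adjusted p = 0.000592), with 48 h library 3 above the other two; without that library the log2 change was 0.59. Psmb10 fell from 84.7, 78.1 and 85.7 FPKM to 56.5, 58.9 and 61.3 FPKM (log2 change -0.49, SE 0.085, limma adjusted p = 0.000398), and every 48 h library was below every 0 h library.

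**Figure D2:**
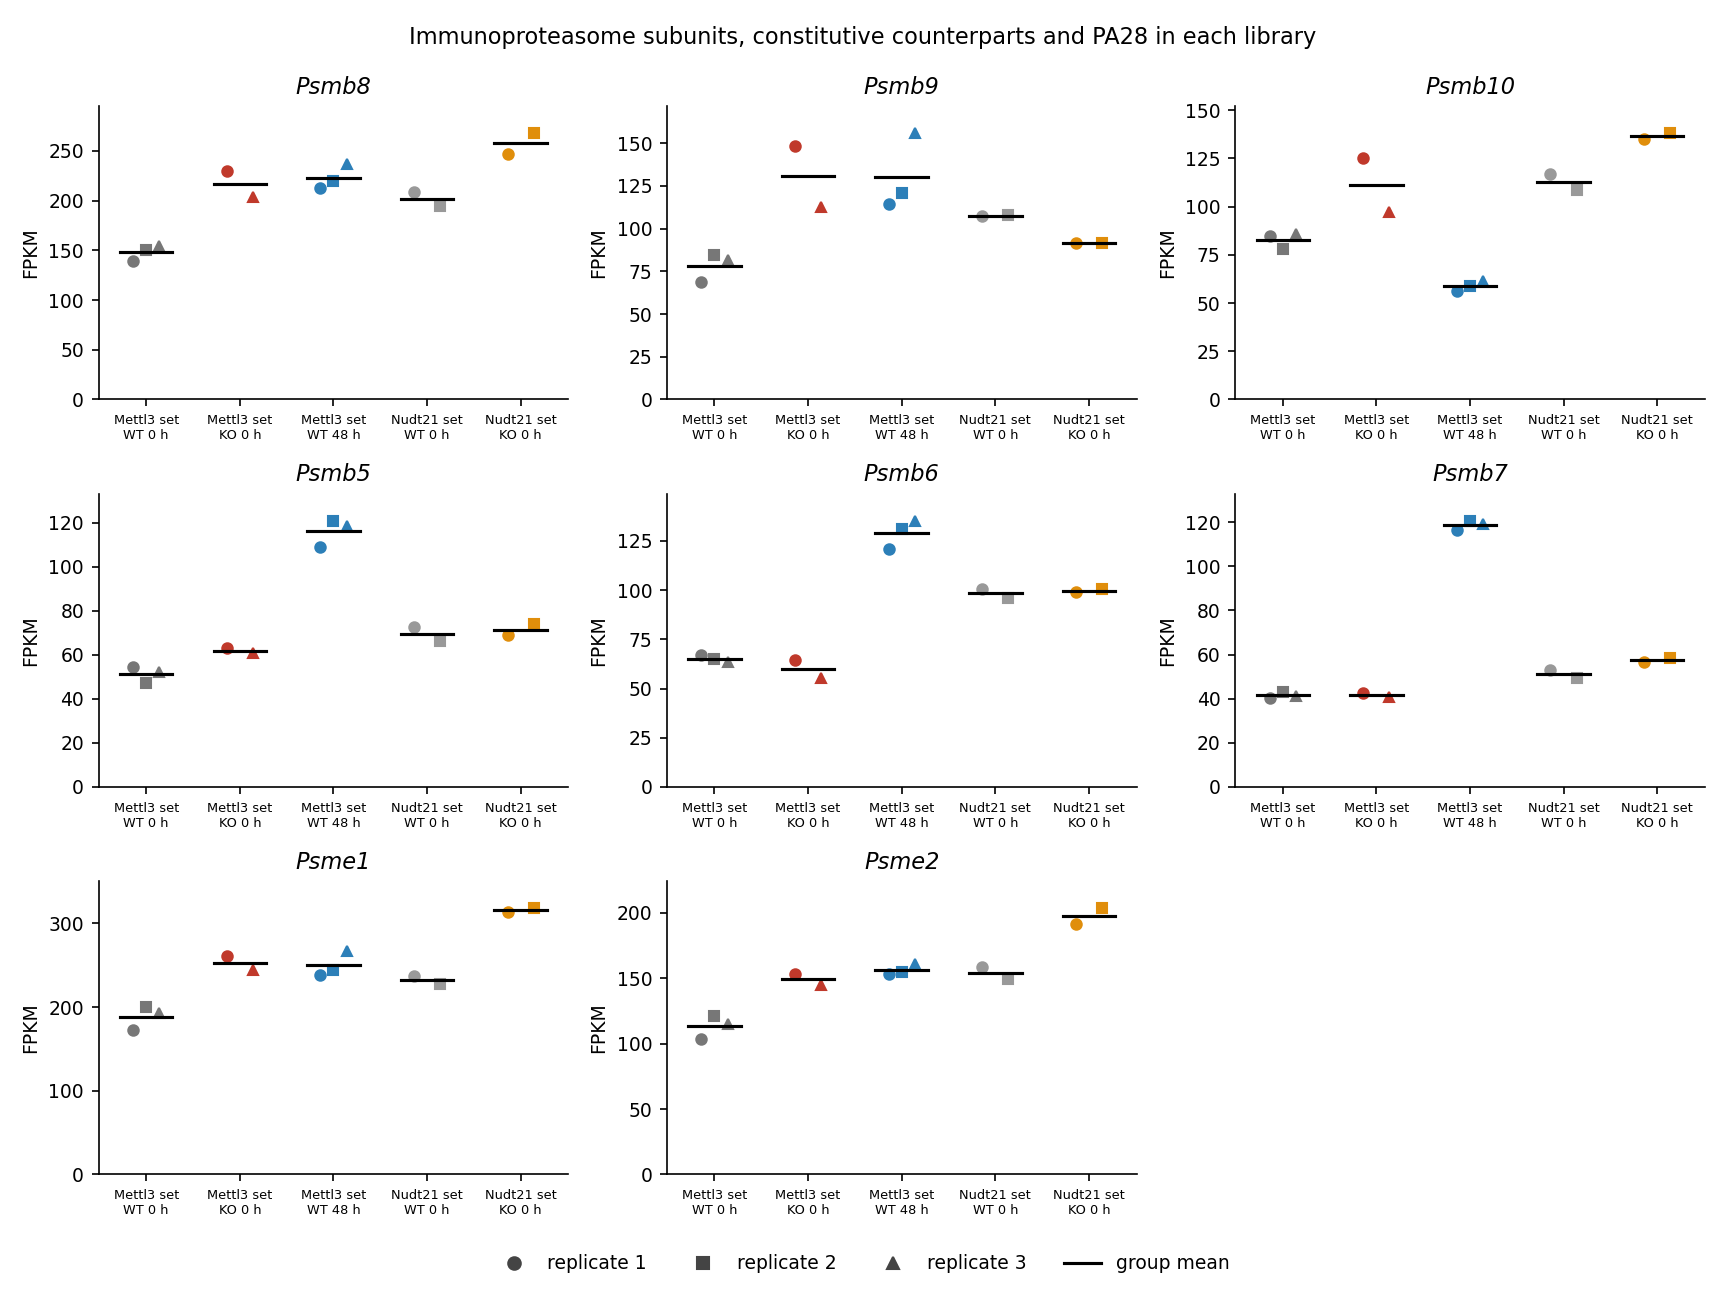
FPKM of the exchanged catalytic subunits and of Psme1 and Psme2 in each of the 12 libraries, by group; symbols are libraries by replicate number and bars are group means. Psmb10 lies at 56.5, 58.9 and 61.3 FPKM at 48 h, below all 0 h libraries, while Psmb7 lies at 116, 121 and 119 FPKM, above all of them.

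The balance within each pair was taken as the ratio of the 2 FPKM values in the same library, which does not depend on the scaling of that library. The Psmb10 to Psmb7 ratio was 2.098, 1.81 and 2.08 at 0 h and 0.486, 0.487 and 0.514 at 48 h, 4.02-fold lower (log2 difference -2.01, exact two-sided permutation p = 0.1, adjusted over 9 ratio tests p = 0.3). With 3 libraries against 3 the smallest p this test can give is 0.1. The immunoproteasome gene thus gave 66.5% of the summed pair at 0 h and 33.1% at 48 h. The Psmb8 to Psmb5 ratio was 2.57, 3.196 and 2.96 at 0 h and 1.95, 1.81 and 2.004 at 48 h (log2 difference -0.59, exact permutation p = 0.1, adjusted p = 0.3), again with no overlap. For Psmb9 to Psmb6 the ratios overlapped, at 1.02, 1.304 and 1.28 and 0.946, 0.923 and 1.15 (log2 difference -0.25, exact permutation p = 0.2, adjusted p = 0.3). None of the 3 differences could pass a threshold of 0.05 with this number of libraries.

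**Figure D3:**
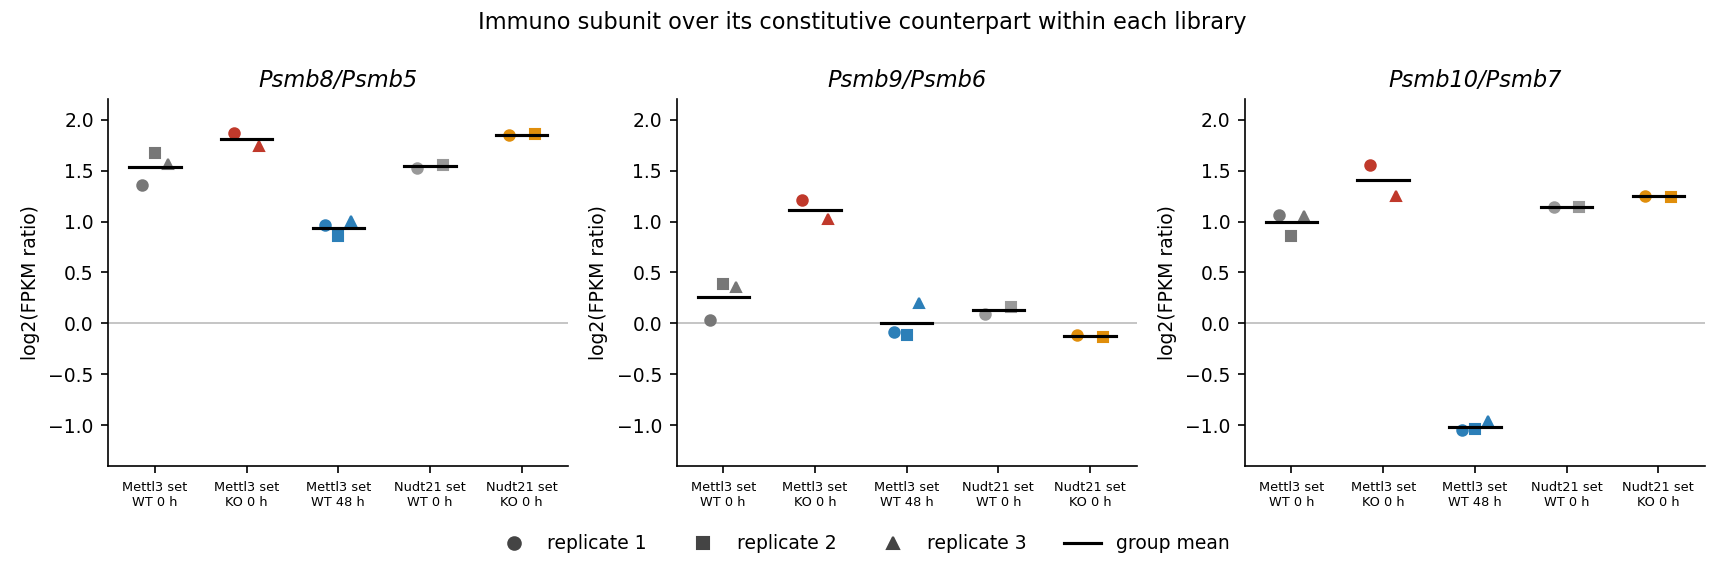
Ratio of immunoproteasome to constitutive FPKM within each library for Psmb8/Psmb5, Psmb9/Psmb6 and Psmb10/Psmb7, as log2 values, by group; symbols are libraries by replicate number and bars are group means. The Psmb10/Psmb7 ratio, before the log, is 0.486, 0.487 and 0.514 at 48 h and 2.098, 1.81 and 2.08 at 0 h; Psmb9/Psmb6 is highest in the Mettl3 knockout at 2.31 and 2.04.

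The regulatory particle and the assembly factors rose as well. All 6 ATPase genes of the 19S base rose at a median log2 change of 0.77, led by Psmc1, from 41.9, 40.8 and 43.97 FPKM to 82.8, 88.5 and 89.3 FPKM (log2 change 1.02, SE 0.05, limma adjusted p = 4.4e-08). All 11 non-ATPase subunit genes rose at a median of 0.81. Psmd1, a scaffold of the base, went from 21.2, 20.4 and 23.9 FPKM to 52.8, 57.5 and 49.5 FPKM (log2 change 1.25, SE 0.094, limma adjusted p = 7.73e-07), whereas the ubiquitin receptor Psmd4 changed by only 0.30. The 3 chaperones of the 19S base, Psmd5, Psmd9 and Psmd10, rose at a median of 0.53. Psmd10 went from 11.04, 11.7 and 11.7 FPKM to 19.7, 20.3 and 20.9 FPKM (log2 change 0.77, SE 0.052, limma adjusted p = 3.61e-07), and Psmd5 (0.23) lost its call under the quantile normalization (adjusted p = 0.121). The chaperones of the 20S core had the largest median among the roles, 1.21 over 4 of 4 genes that rose. Psmg3 went from 7.13, 7.95 and 8.88 FPKM to 25.04, 25.6 and 25.6 FPKM, a 2.95-fold rise (log2 change 1.56, SE 0.07, limma adjusted p = 2.63e-08). Psmg1 followed it, from 17.97, 18.2 and 16.2 FPKM to 46.1, 49.97 and 52.8 FPKM (log2 change 1.46, SE 0.061, limma adjusted p = 1.81e-08).

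The activators rose less. Psme1 went from 173, 200.3 and 193 FPKM to 238, 245 and 267 FPKM (log2 change 0.40, SE 0.067, limma adjusted p = 0.000289), and Psme2 from 104, 121 and 115 FPKM to 153, 155 and 161 FPKM (log2 change 0.46, SE 0.062, limma adjusted p = 6.54e-05). Psme2b, with which Psme2 shares sequence, changed by -0.26 (adjusted p = 0.0511) and did not pass. Psme3, the nuclear activator, went from 50.4, 49.8 and 51.1 FPKM to 73.9, 80.2 and 74.1 FPKM (log2 change 0.58, SE 0.056, limma adjusted p = 4.66e-06). The inhibitor gene Psmf1 rose by 0.35 on the log2 scale. Psme4, the nuclear activator PA200, stood at 14.4, 13.5 and 16.3 FPKM and 15.8, 15.2 and 16.1 FPKM and did not pass (log2 change 0.092, SE 0.083, limma adjusted p = 0.33). Set side by side, the 5 immunoproteasome and PA28 genes counted 4 risen and 1 fallen with a median of 0.46, and the other 41 genes counted 40 risen and 0 fallen with a median of 0.85. At an unadjusted p under 0.05, 0 of those 41 were lower too.

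In the Mettl3 knockout at 0 h, 16 of the 46 genes rose and 0 fell by limma, and 0 were lower at an unadjusted p under 0.05. Among all genes 16.8% were called higher and 12% lower. The 16 included all 5 immunoproteasome and PA28 genes, at a median log2 change of 0.42, and 11 of the other 41 genes, whose median was 0.095; the median of all genes was 0.043. Activation and this comparison share the same 3 wild type libraries. No gene reached a 2-fold change, and in 26 of the 46 the libraries of the groups did not overlap, against 48.6% of all genes. In a fit of only the 5 libraries compared, the genes called higher among all 12511 went from 2103 to 535. Library quality weights gave 748. Of the 16 calls 2 were made in the first of these fits (Psmb8 and Psmd7), and with library quality weights the count was 5. Without knockout library 3 it was 10, and without knockout library 1 there was 1 gene called lower.

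Psmb9 had the largest change of the 46 genes. It stood at 149 and 113 FPKM in the 2 knockout libraries against 68.5, 84.6 and 81.5 FPKM in wild type (log2 change 0.73, SE 0.15, limma adjusted p = 0.00646). Psmb8 stood at 229.98 and 204 FPKM against 139, 150.4 and 155 FPKM (log2 change 0.54, SE 0.078, limma adjusted p = 0.00126). Psmb10 stood at 125 and 97.1 FPKM against 84.7, 78.1 and 85.7 FPKM (log2 change 0.41, SE 0.095, limma adjusted p = 0.0111). In each of the 3 genes both knockout libraries were above all 3 wild type libraries, and knockout library 1 was the higher. Psme1 stood at 261 and 244 FPKM against 173, 200.3 and 193 FPKM (log2 change 0.42, SE 0.075, limma adjusted p = 0.00336), and Psme2 at 154 and 145 FPKM against 104, 121 and 115 FPKM (log2 change 0.40, SE 0.07, limma adjusted p = 0.0032). Library 1 was again the higher one for both PA28 genes. Without library 3, in which the sums of other cell type markers were higher, the log2 changes were 0.63 for Psmb8, 0.92 for Psmb9, 0.59 for Psmb10, 0.47 for Psme1 and 0.44 for Psme2. Without library 1 they were 0.46, 0.53, 0.23, 0.38 and 0.35 in the same order, all with adjusted p under the threshold; the lone library is then assumed to vary like the other groups. The part of other cell types in these changes was not tested.

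Of the constitutive catalytic genes 1 of 3 passed. Psmb5 rose from 54.3, 47.1 and 52.4 FPKM to 62.98 and 60.9 FPKM (log2 change 0.27, SE 0.075, limma adjusted p = 0.0236). Psmb6 stood at 64.3 and 55.3 FPKM (log2 change -0.13, SE 0.07, limma adjusted p = 0.197) and Psmb7 at 42.6 and 40.8 FPKM (log2 change 0.0033, SE 0.049, limma adjusted p = 0.965), and neither passed. The ratios within libraries were accordingly higher for all 3 pairs. Psmb9 to Psmb6 was 2.31 and 2.04 in the knockout against 1.02, 1.304 and 1.28 in wild type (log2 difference 0.86), so that Psmb9 gave 67.1 to 69.8% of the pair. Psmb10 to Psmb7 was 2.94 and 2.38 against 2.098, 1.81 and 2.08 (log2 difference 0.41), and Psmb8 to Psmb5 was 3.65 and 3.35 against 2.57, 3.196 and 2.96 (log2 difference 0.27). None of the 3 overlapped, and each had an exact two-sided permutation p = 0.2, which is the smallest that 3 libraries against 2 allow (adjusted p = 0.3).

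Of the other subunit genes, 4 of 7 alpha ring genes rose (Psma2, Psma4, Psma5 and Psma6), with Psma4 at 66.4 and 76.5 FPKM against 50.96, 59.6 and 61.3 FPKM (log2 change 0.31, SE 0.095, limma adjusted p = 0.0332). Psmb1 was the structural beta gene that rose, from 53.96, 60.7 and 61.6 FPKM to 69.97 and 76.2 FPKM (log2 change 0.31, SE 0.076, limma adjusted p = 0.0146). Among the 11 non-ATPase genes Psmd7, which pairs with the deubiquitinase subunit of the 19S lid, rose from 31.7, 34.4 and 35.2 FPKM to 44.7 and 49.2 FPKM (log2 change 0.46, SE 0.068, limma adjusted p = 0.00135). By contrast 0 of 6 ATPase genes passed, and 0 had an unadjusted p under 0.05. Psmc2 came nearest, at 35.2 and 37.5 FPKM against 31.5, 32.8 and 35.1 FPKM (log2 change 0.13, limma adjusted p = 0.176). Assembly factors were among the larger changes. Psmg4 stood at 38.9 and 30.7 FPKM against 24.7, 22.9 and 23.8 FPKM (log2 change 0.52, SE 0.094, limma adjusted p = 0.00346), Psmg3 rose by 0.44 (adjusted p = 0.00343), and the 19S chaperone Psmd10 stood at 14.8 and 14.8 FPKM against 11.04, 11.7 and 11.7 FPKM (log2 change 0.34, SE 0.058, limma adjusted p = 0.0027). Psmd9, another 19S chaperone, rose by 0.25 (adjusted p = 0.0197). Psmf1 missed the threshold at 13.9 and 13.1 FPKM against 11.2, 12.3 and 12.03 FPKM (log2 change 0.17, limma adjusted p = 0.0553).

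In the Nudt21 knockout 6 of the 46 genes rose and 2 fell. Among all genes 8.73% were called higher and 19% lower. The median log2 change of the 46 genes was 0.04 and that of all genes -0.051. Of the 5 immunoproteasome and PA28 genes 3 rose and 0 fell, at a median of 0.35; 0 were lower at an unadjusted p under 0.05. Of the other 41 genes 3 rose and 2 fell, at a median of 0.02. Over all genes the 1092 called higher became 1638 with median-ratio scaling and 1014 with quantile normalization. The count among the 46 depended on scaling and single libraries: median-ratio scaling gave 12 risen and 2 fallen, quantile normalization 2 and 2. Without wild type library 2 it was 1 risen, and without knockout library 2 it was 2 risen. The fallen genes numbered 1 without wild type library 1 and 1 without knockout library 2.

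Psme1 moved most among the 6. It stood at 314 and 318 FPKM in the knockout and 237 and 228 FPKM in its wild type (log2 change 0.44, SE 0.083, limma adjusted p = 0.00479). Psme2 stood at 191 and 204 FPKM against 159 and 149.7 FPKM (log2 change 0.35, SE 0.077, limma adjusted p = 0.00895), and Psmb8 at 247 and 268 FPKM against 209 and 194 FPKM (log2 change 0.35, SE 0.086, limma adjusted p = 0.0155). In all 3 genes both knockout libraries were above both wild type libraries. The share of all genes whose libraries did not overlap between the groups was not counted for this comparison. Separation of 2 libraries from 2 is therefore given as description only. Psmb10 stood at 135 and 138 FPKM against 117 and 109 FPKM and did not pass (log2 change 0.27, SE 0.10, limma adjusted p = 0.0761). Psmb9 was lower in both knockout libraries, at 91.5 and 91.7 FPKM against 107 and 108 FPKM, and did not pass either (log2 change -0.23, SE 0.16, limma adjusted p = 0.325). The sums of all 4 lists of other cell types stood higher in these knockout libraries than in their wild type, with myeloid markers at 193 to 291 FPKM against 35.4 to 84.1 FPKM. This did not hold for every gene. Of the 7 markers of NK, CD8 T or gamma-delta T cells, 3 were called higher and 0 lower. Klrd1 and Cd8a had lower mean FPKM in the knockout, with libraries that overlapped those of the wild type. The part of other cell types in the rise of Psme1, Psme2 and Psmb8 was not tested.

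Both genes that fell in the main fit encode 20S assembly chaperones, while 5 genes fell with library quality weights. Of the 8 calls, only those of Psmg1 and Psme1 were kept in every other setting and with any library left out. Psmg1 stood at 17.4 and 16.6 FPKM against 23.9 and 23.2 FPKM (log2 change -0.45, SE 0.075, limma adjusted p = 0.00307), and Psmg2, its partner in the same heterodimer, at 22.8 and 20.4 FPKM against 29.7 and 28.2 FPKM (log2 change -0.41, SE 0.09, limma adjusted p = 0.01). In both genes the knockout libraries were below the wild type libraries, which is likewise description only. The knockout level of Psmg1 lay within the 17.97, 18.2 and 16.2 FPKM of the resting wild type of the Mettl3 set. Psmg3 (-0.072) and Psmg4 (-0.23), which form the other heterodimer, did not pass (adjusted p = 0.564 and 0.126). The remaining genes that rose were Psmd11, at 45.8 and 39.96 FPKM against 35.9 and 35.3 FPKM (log2 change 0.26, SE 0.08, limma adjusted p = 0.0374), Psmd8 (log2 change 0.20, adjusted p = 0.0226) and Psmb7, at 56.7 and 58.3 FPKM against 53.1 and 49.4 FPKM (log2 change 0.17, SE 0.054, limma adjusted p = 0.0463). Psmd11 and Psmd8 are subunits of the 19S lid.

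In the other roles no gene passed. The largest changes were those of Psma3 in the alpha ring, at 58.7 and 54.7 FPKM against 51.2 and 46.98 FPKM (log2 change 0.20, limma adjusted p = 0.0853), and of Psmb3 among structural beta genes, at 116 and 121 FPKM against 112 and 105 FPKM (0.12, adjusted p = 0.195). Psmc6 led the ATPases at 30.02 and 25.9 FPKM against 31.4 and 30.7 FPKM (-0.15, adjusted p = 0.234), and Psmd9 the 19S chaperones at 8.27 and 7.43 FPKM against 8.48 and 8.45 FPKM (-0.10, adjusted p = 0.334). Psme4 stood at 11.2 and 9.14 FPKM against 11.98 and 13.04 FPKM (-0.28, adjusted p = 0.0649). Ratios moved apart by pair. Psmb8 to Psmb5 was 3.59 and 3.62 against 2.88 and 2.94, Psmb10 to Psmb7 was 2.38 and 2.37 against 2.204 and 2.203, and Psmb9 to Psmb6 was 0.923 and 0.914 against 1.07 and 1.12. The first 2 were higher in the knockout (log2 differences 0.31 and 0.11) and the last lower (-0.25), with an exact two-sided permutation p = 0.333 each, the smallest that 2 against 2 allow.

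**Figure D4:**
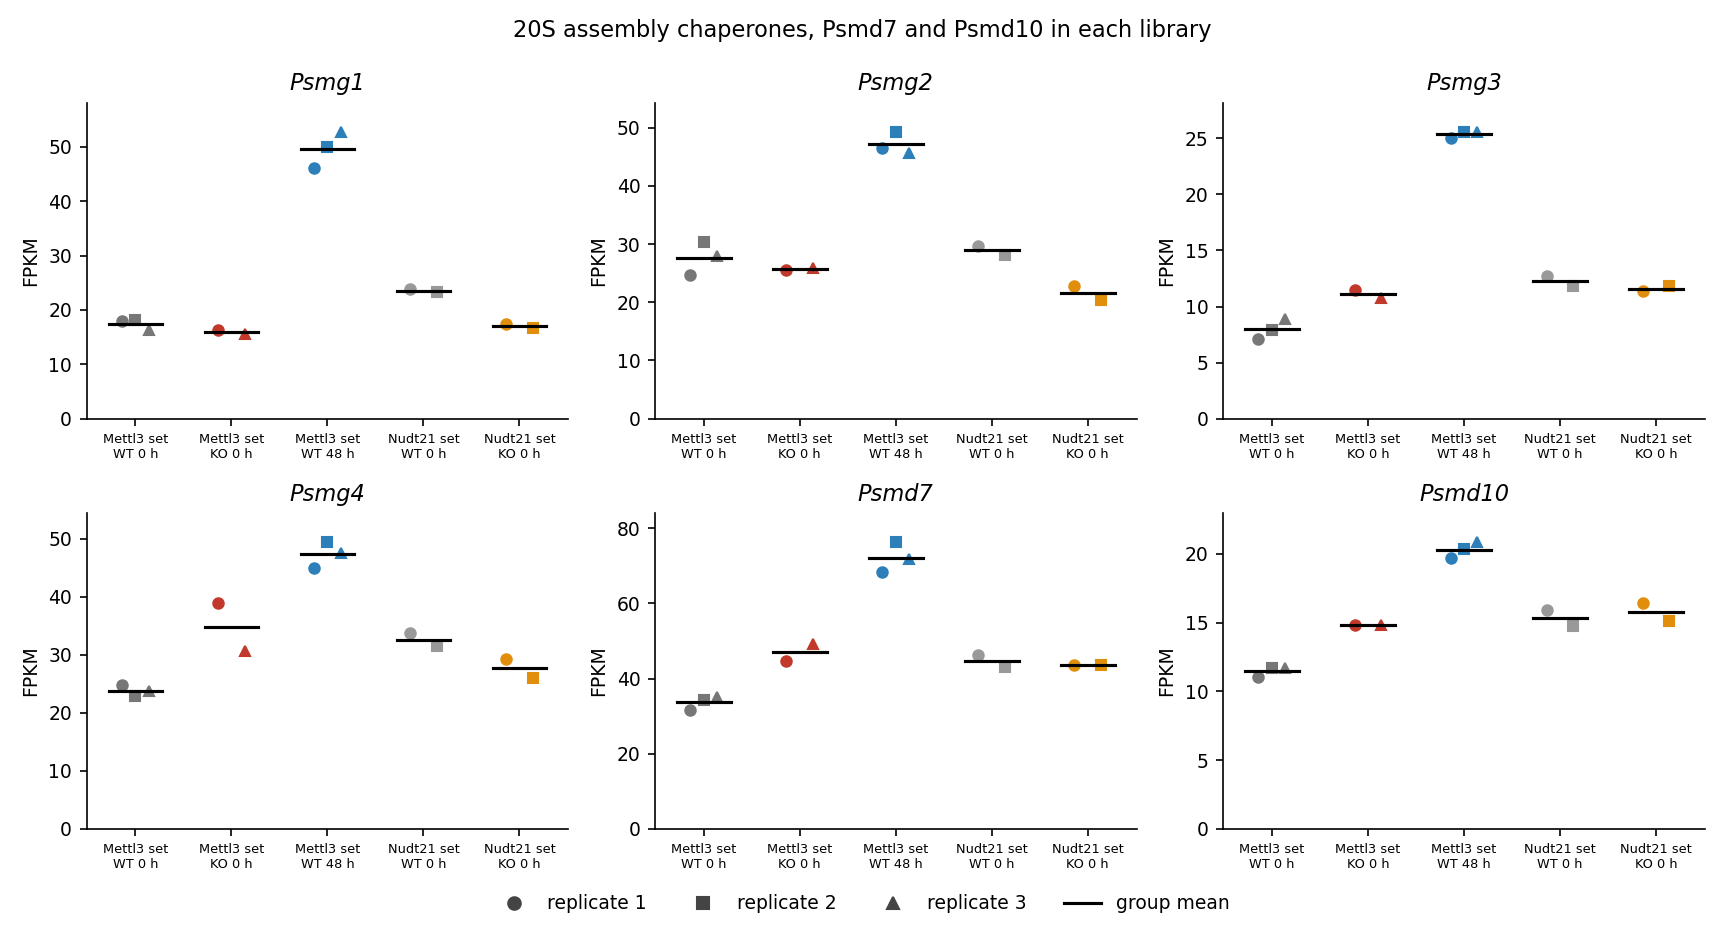
FPKM of the 20S assembly chaperones, the lid subunit Psmd7 and the 19S chaperone Psmd10 in each of the 12 libraries, by group; symbols are libraries by replicate number and bars are group means. Psmg1 stands at 17.4 and 16.6 FPKM in the Nudt21 knockout, below 23.9 and 23.2 FPKM in its wild type, and Psmg4 at 38.9 and 30.7 FPKM in the Mettl3 knockout, above 24.7, 22.9 and 23.8 FPKM in its wild type.

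The difference between the knockouts was tested directly as the change in the Mettl3 knockout minus that in the Nudt21 knockout. It was positive past the threshold for 7 of the 46 genes and negative for 1, where 17.8% and 7.44% of all genes were called. Psmb9 had the largest difference, 0.95 (SE 0.22, limma adjusted p = 0.0133). Psmb8 (0.19, adjusted p = 0.252), Psmb10 (0.13, adjusted p = 0.52), Psme1 (-0.02, adjusted p = 0.919) and Psme2 (0.041, adjusted p = 0.806) did not pass. Their 95% intervals ran from -0.066 to 0.46 for Psmb8 and from -0.27 to 0.23 for Psme1. Psmg4 (0.75, adjusted p = 0.00522) and Psmd7 (0.49, adjusted p = 0.00788) kept their calls in every other setting and with any library left out, as did Psmb9. With median-ratio scaling the count was 4 positive and 5 negative, and with quantile normalization 4 and 2. Median-ratio scaling moved the median of all genes from 0.12 to 0.0038. The positive count was 11 without Mettl3 knockout library 1, 3 without Nudt21 wild type library 1 and 4 without Nudt21 knockout library 2. The negative count was 2 without Mettl3 knockout library 3 and 0 without library 2 of either Nudt21 group.

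The resting wild types of the sets were not alike in these genes. By limma 32 of the 46 were higher in the Nudt21 wild type than in the Mettl3 wild type and 0 were lower, where 18.7% and 7.31% of all genes were called; at an unadjusted p under 0.05, 34 were higher and 1 lower. All 5 immunoproteasome and PA28 genes were among the 32. This comparison shares its wild type libraries with those of the knockouts. Psmb8 stood at 209 and 194 FPKM against 139, 150.4 and 155 FPKM (log2 change 0.44, SE 0.078, limma adjusted p = 0.0046), and the Nudt21 wild type thus lay next to the Mettl3 knockout at 229.98 and 204 FPKM. For Psmb10 the Nudt21 wild type stood at 117 and 109 FPKM, within the 125 and 97.1 FPKM of the Mettl3 knockout. Without Nudt21 wild type library 1 the count fell to 10, and with quantile normalization it was 17. Each knockout was therefore tested only against the wild type of its own set. Levels of a knockout set beside those of the other set carry no test and may reflect this difference between sets.

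Partners of the proteasome whose symbols fall outside the Psm series were read from a list of 19 measured genes. With activation 13 rose and 3 fell, where 43.6% and 34.9% of all genes were called. Pomp, the maturation protein of the 20S core, went from 27.9, 28.4 and 26.7 FPKM to 61.3, 65.9 and 66.4 FPKM (log2 change 1.19, SE 0.053, limma adjusted p = 2.39e-08). Uchl5, a deubiquitinase of the 19S particle, rose by 1.19, the shuttle factor Rad23b by 1.07, the 19S subunit gene Sem1 by 0.93 and the segregase gene Vcp by 0.91. The transcription factor Nfe2l1, known as the driver of proteasome genes when proteasomes are inhibited, rose by 0.53 (adjusted p = 8.9e-05). Nfe2l2, its relative in the antioxidant response, fell from 29.2, 31.2 and 31.7 FPKM to 15.1, 15.4 and 16.02 FPKM (log2 change -0.94, SE 0.047, limma adjusted p = 4.62e-08). In the Mettl3 knockout 4 rose and 4 fell, where 16.8% and 12% of all genes were called, with Pomp at 0.30, Nfe2l1 at 0.33, Nfe2l2 at 0.29 and Sem1 at 0.32 as those that rose. In the Nudt21 knockout 4 rose, where 8.73% of all genes were called higher: Nfe2l1 rose by 0.32, Pomp by 0.20, Nfe2l2 by 0.18 and Uba1, the ubiquitin-activating enzyme, by 0.17.

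A second list held 16 genes of interferon signalling and of peptide loading onto MHC class I, which act with the immunoproteasome. With activation 4 rose and 9 fell, against the same 43.6% and 34.9% of all genes. Among those that fell, Irf9 changed by -1.34, the class I heavy chain gene H2-K1 by -1.06, Nlrc5, the transactivator of class I genes, by -0.94, Irf1 by -0.74 and B2m by -0.53, while the peptide transporter gene Tap1 rose by 0.36. In the Mettl3 knockout 11 of the 16 rose and 0 fell, against 16.8% and 12% of all genes; 0 were lower at an unadjusted p under 0.05. Tap1 stood at 224 and 189 FPKM against 118, 142 and 135 FPKM (log2 change 0.65, SE 0.14, limma adjusted p = 0.00718), with library 1 the higher. Tap2 rose by 0.63, Tapbp by 0.53 and Nlrc5 by 0.46, and Irf1 (0.48, adjusted p = 0.106) did not pass. Tap1 shares exonic overlap with Psmb9, as given above. In the Nudt21 knockout H2-D1 (0.56) and Tapbp (0.38) rose and Rfx5 fell (-0.35), where 8.73% and 19% of all genes were called.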

How the data were processed

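RNA sequencing of 12 libraries of sorted naive CD4 T cells was deposited by the authors as 1 table of FPKM per gene. Bowtie and mm10 are named without role or version, per the submitters' processing notes; the tool that made the FPKM values, the annotation and the use of strand are not given in the sources used here. FPKM values showed no steps of whole reads (of 1667 low genes, 1.26% fell in the fullest bin of ratios between libraries), so depth is unknown and no count test was used. Libraries were grouped by title.

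Genes at 1 FPKM or more in at least 2 libraries were kept (12511; 19774 set aside). One model of the 5 groups was fitted to log2(FPKM + 1) by limma 3.58.1 (R 4.3.3; trended empirical Bayes; 7 residual degrees of freedom), adjusted by Benjamini-Hochberg within each of 5 comparisons, and tested on simulated data. A fold change is on that scale and understates low genes. Ratios were tested by exact permutation (scipy 1.17.1). The members and gene lists were chosen with earlier results of these data known. Every member may be named; all library values are given for the exchanged subunits, Psme1, Psme2 and the largest change per role, and up to 6 passing partners per list, of which some are not reported here. Deviations of same-numbered libraries correlated at 0.261, 0.228 and 0.319 between the wild types at 0 h and 48 h, which were treated as paired by number in an alternative. Other alternatives covered the scaling, pseudocount, filter, weights, libraries fitted, GC and length correction, and each library left out. Shared sequence was counted in 50-base words of GENCODE M21 transcripts. Figures were drawn with matplotlib 3.10.9.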

Additional observations from a re-analysis of the deposited data

Results flagged for a closer look

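The change in the Mettl3 knockout and the change in the Nudt21 knockout differed by a direct limma test of the difference (adjusted over 12511 genes) for 8 of the 46 genes. The difference was positive for 7 and negative for 1, where 17.8% and 7.44% of all genes were called. The 46 genes were thus not called more often than genes at large. Values are log2 changes in the Mettl3 knockout minus those in the Nudt21 knockout. For Psmb9, the immunosubunit, the difference was 0.95 (adjusted p = 0.0133), from 0.73 in the Mettl3 knockout and -0.23 in the Nudt21 knockout. For Psmg4, a 20S assembly chaperone, the difference was 0.75 (adjusted p = 0.00522), from 0.52 in the Mettl3 knockout and -0.23 in the Nudt21 knockout. For Psmg3, its partner chaperone, the difference was 0.51 (adjusted p = 0.0126), from 0.44 in the Mettl3 knockout and -0.072 in the Nudt21 knockout. For Psmd7, a subunit of the 19S lid, the difference was 0.49 (adjusted p = 0.00788), from 0.46 in the Mettl3 knockout and -0.03 in the Nudt21 knockout. For Psmd9, a 19S chaperone, the difference was 0.35 (adjusted p = 0.0283), from 0.25 in the Mettl3 knockout and -0.10 in the Nudt21 knockout. For Psmg1, a 20S assembly chaperone, the difference was 0.32 (adjusted p = 0.0461), from -0.13 in the Mettl3 knockout and -0.45 in the Nudt21 knockout. For Psmd10, a 19S chaperone, the difference was 0.30 (adjusted p = 0.0304), from 0.34 in the Mettl3 knockout and 0.04 in the Nudt21 knockout. For Psmd8, a subunit of the 19S lid, the difference was -0.28 (adjusted p = 0.0201), from -0.083 in the Mettl3 knockout and 0.20 in the Nudt21 knockout. Psmg1 fell in the Nudt21 knockout and did not pass in the Mettl3 knockout, and Psmd8 rose in the Nudt21 knockout and did not pass in the Mettl3 knockout. The calls of Psmb9, Psmd7 and Psmg4 were kept in all other settings and leave-outs, which was not so for the other 5.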

How the results depend on the processing

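No call of a single gene changed direction in any of the 10 other settings or the 12 fits with a library left out, and the counts for activation stayed at 42 to 45 higher and 1 lower. In the Mettl3 knockout the 16 higher genes became 5 with library quality weights and 2 with only the groups compared, and the 0 lower genes became 3 with the GC content and length correction (added after seeing the data) and 1 with quantile normalization; leaving out a library gave 10 to 17 higher and 0 to 1 lower, the lowest without Mettl3 knockout library 3. In the Nudt21 knockout the 6 higher genes became 12 with median-ratio scaling and 2 with quantile normalization, the 2 lower became 5 with weights, and leaving out a library gave 1 to 8 higher and 1 to 3 lower. For the difference between knockouts the 7 higher became 4 with weights, with median-ratio scaling, with quantile normalization and with only the groups compared; the 1 lower became 5 with median-ratio scaling, 2 with quantile normalization, 3 with GC and length correction and 0 with weights; leave-outs gave 3 to 11 higher and 0 to 2 lower. For the wild types of the sets the 32 higher became 21 with GC and length correction, 21 with median-ratio scaling and 17 with quantile normalization, the 0 lower became 1 with each of these 2 scalings, and leave-outs gave 10 to 32 higher. Calls of higher over all genes moved too. In the Mettl3 knockout 2103 became 748 with weights and 535 with only the groups compared. In the Nudt21 knockout 1092 became 1638 with median-ratio scaling, 1014 with quantile normalization and 1983 with only the groups compared. For the difference 2233 became 1440 with weights and 1326 with median-ratio scaling. Between wild types 2337 became 1276 with median-ratio scaling and 1030 with quantile normalization. With only the groups compared fewer libraries set the spread. The cause of these shifts was not tested. With a replicate block the activation counts were 44 and 1 and no call changed, and the Nudt21 knockout had 2 higher genes. Deviations of the same-numbered Nudt21 libraries correlated at -0.12. With 2 libraries per group this is a single value, which cannot settle whether the numbers pair them. A crossed pairing, added after seeing the data, gave 4 higher and 3 lower. Calls kept in all settings and leave-outs numbered 43 of 45 with activation, 2 of 16 in the Mettl3 knockout, 2 of 8 in the Nudt21 knockout, 3 of 8 for the difference and 10 of 32 between wild types. The exact permutation tests of ratios cannot fall below p = 0.1, so their alternatives bear on direction only. Depth is unknown from FPKM, so counting error could not be given.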

Other observations

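Among the wild type libraries at 48 h, library 3 was the highest for Psmb9 (114, 121 and 156 FPKM in libraries 1 to 3), and it was also the highest for Irf1 (60.6, 57.4 and 98.8 FPKM) and Tap1 (153, 152 and 205 FPKM). Psmb10 was at 56.5, 58.9 and 61.3 FPKM in the same libraries, close together. These values were singled out after they were seen and carry no test.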
